A study of Mus musculus with 11 samples.

Results

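B cells of the small-intestinal mesenchyme were the 108 cells, of 12266 kept in 2 whole-mesenchyme droplet libraries and 16156 kept in all 3 single-cell libraries of the study, that carried transcripts of Cd79a and Ms4a1 and no or few of a set of other genes. The members were chosen by measured UMI counts: a cell counted as a B cell when it held at least 500 genes and under 10% mitochondrial transcripts, 2 or more transcript molecules (unique molecular identifiers, UMIs) of Cd79a, 1 or more of Ms4a1, 4 or fewer of Mzb1, at most 1 of Mki67 and Top2a together and 0 of Cd3d, Cd3e and Cd3g together. Library 1 held 57 such cells among 6226 (0.916%, exact 95% interval 0.694 to 1.18%). Library 2 held 51 among 6040 (0.844%, 0.629 to 1.11%). The intervals overlap almost wholly. Intervals of shares here are exact binomial (Clopper-Pearson) ones and cover counting error only. With at most 5% mitochondrial transcripts, 9 and 6 of these cells would have been left.

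The study profiled the cell types that lie beneath the intestinal epithelium of the mouse. Cells came from the whole small intestine after the muscle was stripped, the epithelium was released with EDTA and the rest was digested with collagenase II. Besides the 2 whole-mesenchyme libraries, it made 1 single-cell library of cells sorted for green fluorescent protein (GFP) under the Pdgfra gene, and 8 bulk RNA libraries of 4 sorted populations, 2 each. The bulk populations were telocytes (GFP-high) and PDGFRAlo stromal cells (GFP-low) of the transgenic PDGFRAH2BEGFP mouse, and blood (CD31+LYVE1-) and lymphatic (CD31+LYVE1+) endothelium of C57BL/6 mice. No strain, age or treatment is given in the labels for the whole mesenchyme, and its protocol text repeats the GFP sort of the sorted library. The labels do not say whether the 2 libraries of a group came from separate animals, so p-values measure only the spread between libraries, which may be technical.

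B cells recognise antigen through a membrane immunoglobulin held by the Cd79a and Cd79b signalling chains, and they present peptides of what they bind on MHC class II molecules to helper T cells. In the gut they gather in Peyer's patches and isolated lymphoid follicles, where naive cells meet antigen. Their descendants, the plasma cells of the lamina propria, secrete mainly immunoglobulin A and give up the receptor and presentation genes. The 2 classes set beside the B cells were 1785 plasma cells (885 and 900; Mzb1 5 or more and Jchain 100 or more) and 5986 other cells with a Ptprc transcript (3014 and 2972), the leukocyte antigen CD45. T cells (1325 and 1321 cells with 2 or more Cd3 transcripts) and macrophages rich in C1q transcripts (121 and 105 cells) were gated separately. Their gates did not ask for a Ptprc transcript, so they overlap with the other Ptprc cells, and the overlap was not counted.

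B cells were small in transcript content. Their median was 2770 UMIs (1601 to 14029) in library 1 and 2679 (1199 to 10999) in library 2, against 23458 and 23183 in plasma cells, 3592 and 3550 in T cells and 5280.5 and 5273 in all kept cells. The B cells summed to 210595 and 167383 UMIs. In CPM, the usual unit of counts scaled to a fixed total, 1 UMI in these sums is worth 4.75 and 5.97. Levels below are CPM of these sums, scaled between classes by the TMM method, after which 1 UMI is worth 3.18 and 4.02 CPM. Since immunoglobulin transcripts made up 61.2 and 60.3% of plasma cell UMIs, scaled plasma cell values can add up to more than the nominal total. No B cell barcode was shared between the libraries, although 7 kept barcodes were.

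A few of these cells also carried transcripts of another cell type. Chosen after the data were seen, 8 cells (5 and 3) held 10 or more UMIs of another type's markers or 100 or more of Jchain. Of these, 2 cells of library 1 held 261 and 297 UMIs of fibroblast markers, 1 of library 1 held 27 beside 148 of smooth muscle and pericyte markers, and 1 of library 2 held 116 beside 43. Another held 17 UMIs of endothelial markers, 2 of library 2 held 11 and 20 of natural killer and innate lymphoid markers, and 1 of library 1 held 1100 Igha, 866 Igkc and 247 Jchain UMIs. Their median depth was 11192 and 9278 UMIs, against 2687.5 and 2643.5 in the other B cells. The doublet caller marked 120 of 6886 and 102 of 6676 called barcodes, and 0 of the B cells. Called genes of the lists that changed sign without these 8 cells are named below, and counts of all genes are given with and without them. Other genes of the lists gained or lost a call without these cells and are not all named. No fibroblast marker UMI was found in 40 and 41 of the B cells.

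The gate was checked against B-lineage genes that it did not use. A UMI of Cd79b, the partner chain of Cd79a, was found in 34 of 57 and 39 of 51 cells, of Ebf1 in 51 and 46, and of Pax5 in 34 and 33. At least 1 of these 3 genes was found in 54 of 57 and 51 of 51 cells, so nearly all carried a B-lineage transcript beyond the gate. Plasma cells also held Cd79b and some stromal cells Ebf1, as given below. Cells with transcripts of another type can pass this check: the cell with 1100 Igha UMIs held 1 UMI of each gene. Among T cells, Cd79b was found in 4.45 and 3.94% and Pax5 in 0 and 0.227%. By the gate, Cd79a ranged from 2 to 16 UMIs a cell in library 1 and from 2 to 13 in library 2, with a median of 5 in both. Ms4a1 ranged from 1 to 5 and from 1 to 6, with a median of 2 in both.

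At the edges of the gate, 6 and 7 members held exactly 2 Cd79a UMIs, and 11 and 4 further cells met all else with exactly 1. The Ms4a1 clause removed 60 and 50 cells that met all else, of which 68.3 and 66.0% held an Ebf1 UMI and 48.3 and 34.0% a Pax5 UMI. The Mzb1 clause removed 11 and 14 cells, with a median of 618 and 1171 Jchain UMIs and of 16942 and 21240 UMIs in all. The gate therefore holds the cells in which both receptor-side transcripts were caught, and leaves out others in which no Ms4a1 UMI was caught.

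The regions before the start sites of 3 B-cell genes are shown because they hold short motifs of factors that these cells express. They are the 250 bases before the RefSeq start of Cd22 (an inhibitory receptor), Vpreb3 (a chaperone of the receptor's assembly) and Ccr6 (the receptor for the chemokine CCL20), on build GRCm38.p6. Capitals mark the EBF palindrome (TCCC and GGGA with any 2 bases between them) in Cd22, and the octamer ATGCAAAT and the ETS motif AGGAAGT, in either orientation, in Vpreb3 and Ccr6. Cd22 lies on the minus strand at chr7:30879029-30879278, Vpreb3 on the plus strand at chr10:75948050-75948299 and Ccr6 on the plus strand at chr17:8235793-8236042. The first 2 windows lie within the longer GENCODE M21 gene, from another start.
Cd22: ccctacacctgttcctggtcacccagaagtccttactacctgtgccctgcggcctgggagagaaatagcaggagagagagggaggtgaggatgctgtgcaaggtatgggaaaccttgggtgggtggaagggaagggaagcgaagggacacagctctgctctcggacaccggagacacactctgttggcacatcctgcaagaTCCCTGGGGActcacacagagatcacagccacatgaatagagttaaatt
Vpreb3: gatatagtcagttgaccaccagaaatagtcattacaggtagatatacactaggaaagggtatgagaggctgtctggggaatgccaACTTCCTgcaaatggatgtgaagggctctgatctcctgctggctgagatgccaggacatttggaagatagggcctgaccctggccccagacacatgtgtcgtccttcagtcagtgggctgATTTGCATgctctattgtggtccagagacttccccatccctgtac
Ccr6: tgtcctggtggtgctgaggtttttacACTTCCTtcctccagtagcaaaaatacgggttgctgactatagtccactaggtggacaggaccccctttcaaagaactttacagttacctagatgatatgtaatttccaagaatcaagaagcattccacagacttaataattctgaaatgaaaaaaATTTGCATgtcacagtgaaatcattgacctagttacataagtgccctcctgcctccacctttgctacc

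The EBF palindrome of Cd22 lies 49 to 40 bases before its start, and the octamers of Vpreb3 and Ccr6 lie 45 to 38 and 68 to 61 bases before theirs. Searched on both strands, the EBF letters were found in 213 of 27025 RefSeq promoters of this length (0.788%), the octamer in 435 (1.61%) and the ETS letters in 2109 (7.80%). Of the 432 genes higher in B cells than in both plasma cells and other Ptprc cells, 324 had a promoter in the table. They held the 3 motifs in 5 (1.54%), 10 (3.09%) and 28 (8.64%). The 5 with the EBF letters were Cd22, Chst3, Myo1e, Pold4 and Tnrc6c. The 432 genes were called with the 8 cells with markers of another type in the sums, and may include genes of those types. Without those cells, 858 of the 1301 genes higher than in plasma cells kept the call. Against other Ptprc cells, 532 of 644 did. The 3 genes shown were picked from 21 B-cell genes with a promoter in the table. Of the others, Cd79a, Fcrl1, Cd72 and H2-Oa held the ETS letters. The rest, among them Pax5, Ebf1 and Spib, held none of the 3 motifs. A match describes the letters of the window and shows no binding.

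Across the 13588 genes tested, B cells and plasma cells differed widely. With the 10 genes of the gates left out and the library as a block, edgeR's quasi-likelihood test at an adjusted p under 0.05 called 1301 genes higher in B cells (9.57%) and 2112 lower (15.5%). Against other Ptprc cells it called 644 higher (4.74%) and 1330 lower (9.79%). The median log2 difference over all genes was -0.39 against plasma cells and -0.26 against other Ptprc cells. Because the classes were cut by their transcripts, genes that travel with the gate genes differ by the choice of cells. The tests say how large a difference is beside the spread of the 2 libraries, and the lists below were chosen for B cells.

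The partners of the receptor, which set its threshold, were high in B cells. Of 9 partners and inhibitory receptors tested, 6 were higher and 1 lower than in plasma cells (median log2 difference 3.05), and 8 were higher and 0 lower than in other Ptprc cells (median 4.66). Cr2, a receptor for complement fragments, stood at 38.1 and 36.2 CPM in the B cells of libraries 1 and 2, at 0.474 and 0.361 in plasma cells and at 0.537 and 0.367 in other Ptprc cells. Its B cell values did not overlap with those of the other classes, and it passed edgeR's test in both comparisons (log2 difference from plasma cells 6.43 ± 0.69 SE, adjusted p = 4.06e-09). Cd79b did not differ from plasma cells beyond the spread. Its CPM was 248 and 406 in B cells and 374 and 359 in plasma cells, and the log2 difference was -0.20 ± 0.13 (edgeR, adjusted p = 0.307). Against the 9.0 and 9.1 CPM of other Ptprc cells it was 5.14 ± 0.20 higher. Cd81, a tetraspanin, was lower than in plasma cells, with 95.3 and 76.3 against 214 and 210 CPM.

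The inhibitory receptors divided between those shared with plasma cells and those that were not. Cd22, a receptor for sialylated glycans, stood at 38.1 and 52.2 CPM in B cells and at 0.189 and 0.361 in plasma cells. Macrophages with C1q held 45.9 and 25.2 CPM of Cd22, a range that overlaps that of the B cells. Cd72 stood at 95.3 and 121 CPM in B cells and at 2.56 and 3.88 in plasma cells. It was also found in macrophages, at 204 and 145 CPM, above the B cells. Fcgr2b, the inhibitory receptor for immunoglobulin G, stood at 38.1 and 32.1 CPM in B cells and 36.8 and 37.3 in plasma cells, with no difference beyond the spread (log2 -0.07 ± 0.35, edgeR adjusted p = 0.910). Siglecg and Fcrl1 were higher than in both other classes.

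**Figure D1:**
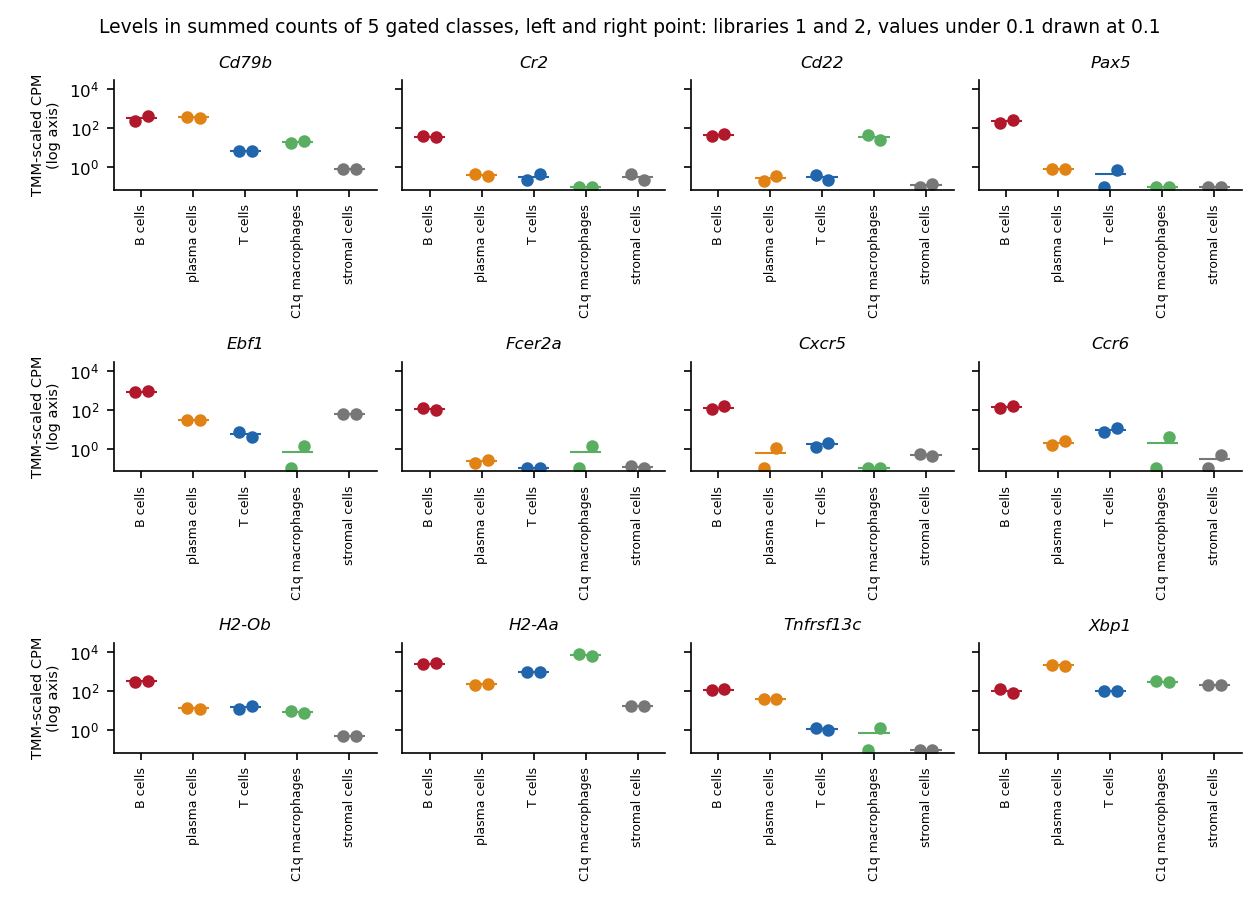
CPM (TMM-scaled, log axis) of 12 genes in 5 cell classes, with 1 point per whole-mesenchyme library and a line at the mean, where values under 0.1 are drawn at 0.1. Cd79b overlaps between B and plasma cells, Cd22 reaches 45.9 CPM in macrophages, and Pax5, Fcer2a and Cxcr5 lie at 92.4 CPM or more in B cells and at 1.1 or less in plasma cells.

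The kinases and adaptors downstream of the receptor were higher in B cells for 9 of 15 tested genes against plasma cells, with 0 lower (median log2 difference 1.37). Against other Ptprc cells 6 were higher and 2, Fyn and Dapp1, lower (median 0.73). Blk, a Src-family kinase of B cells, stood at 95.3 and 113 CPM against 7.39 and 5.51 in plasma cells and 8.92 and 8.53 in other Ptprc cells. Bank1, a scaffold for Lyn, stood at 184 and 213 CPM against 1.23 and 1.62 in plasma cells, a log2 difference of 7.10 ± 0.31 (edgeR, adjusted p = 4.68e-19). Macrophages held 68.0 and 58.4 CPM of Bank1. Blnk, the adaptor between Syk and Btk, stood at 108 and 100.4 CPM in B cells and at 136 and 136 in plasma cells and did not pass the test between them (adjusted p = 0.189). Lyn and Malt1 were higher than in plasma cells but did not pass the test against other Ptprc cells.

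Pax5 and Ebf1, factors that hold B-cell identity, stood far above both classes. Of 19 transcription factors tested, 11 were higher and 3 lower than in plasma cells (median log2 difference 1.67), and 12 were higher and 2 lower than in other Ptprc cells (median 1.02). The median against plasma cells rests on the cells taken: it was 0.12, with 9 higher, under the stricter gate of 3 Cd79a and 2 Ms4a1 UMIs, and 0.91, with 10 higher, without the 8 cells with markers of another type. Pax5, the factor that commits cells to the B lineage, stood at 197 and 273 CPM in B cells, at 0.853 and 0.812 in plasma cells and at 2.56 and 1.51 in other Ptprc cells. Ebf1, which acts upstream of Pax5, stood at 797 and 908 CPM in B cells, at 29.4 and 31.5 in plasma cells and at 17.6 and 13.8 in other Ptprc cells. The log2 differences from plasma cells were 8.10 ± 0.35 for Pax5 and 4.79 ± 0.13 for Ebf1 (edgeR, adjusted p = 3.80e-19 and 1.27e-24). Ebf1 is not particular to B cells in this tissue, since 18.8 and 20.8% of stromal cells held a UMI of it, against 89.5 and 90.2% of B cells and 1.96 and 1.14% of T cells.

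Further factors followed these. Spib, an ETS factor, stood at 105 and 76.3 CPM in B cells against 0.758 and 1.81 in plasma cells. Bach2, which represses the plasma cell programme, stood at 88.9 and 129 CPM against 5.31 and 6.32. Bcl11a stood at 50.8 and 64.3 CPM against 0.568 and 1.17. In none of these did the libraries of the 2 classes overlap. Pou2af1, the coactivator of the octamer factors, was lower than in plasma cells, at 149 and 161 against 360 and 348.2 CPM, and 5.17 ± 0.24 higher on the log2 scale than in other Ptprc cells. Its partner Pou2f2 was higher than in both, at 121 and 145 CPM.

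For Id3, an inhibitor of E proteins, the call rests on few cells. The B cell sums held 127 and 289 CPM, against 31.1 and 37.7 in plasma cells, and the gene passed the test in both comparisons (log2 2.53 ± 0.25 from plasma cells). Yet 5 cells of library 1 held all 40 UMIs and 8 cells of library 2 all 72, of which 62 lay in 1 cell. Without the 8 cells with markers of another type, Id3 was 0.29 lower than in plasma cells on the log2 scale, with no call. It turned from 1.33 higher to 1.57 lower than in other Ptprc cells, and was then called lower (edgeR, adjusted p = 0.0100). Then 10 of the 19 factors were higher in each comparison.

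Genes of the secretory programme separated the B cells from plasma cells without exception: 18 of 18 were lower (median log2 difference -4.40). Xbp1, the factor that widens the secretory pathway, stood at 127 and 80.4 CPM against 2176 and 2083. Prdm1, which silences B-cell genes, stood at 6.35 and 8.04 CPM against 84.2 and 84.4. Sdc1 (CD138), a plasma cell surface proteoglycan, stood at 9.53 and 16.1 CPM against 440.0 and 419.6. Txndc5, an oxidoreductase of the endoplasmic reticulum, stood at 38.1 and 28.1 CPM against 3012 and 2977, a log2 difference of -6.48 ± 0.15 (edgeR, adjusted p = 9.84e-27). Tnfrsf17 (BCMA) had 0 UMIs in the B cells of both libraries, which against plasma cells is at least 56.7-fold lower by a floor of 3 counts over the group. Against other Ptprc cells, 6 of the 18 were lower and 0 higher, and Xbp1 (133 and 129 CPM there) did not pass the test. Without the 8 cells that carried markers of another type, 17 of the 18 were lower than in plasma cells.

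Among genes outside the lists, the largest differences from plasma cells included further B-lineage genes. Fcmr, the receptor for immunoglobulin M, stood at 194 and 241 CPM against 0.947 and 1.26, and Scd1, a fatty acid desaturase, at 349 and 434 against 4.64 and 6.05. Both were also higher than in other Ptprc cells, where Scd1 stood at 8.55 and 7.22 CPM. Vpreb3 was high in both antibody-lineage classes: 156 and 145 CPM in B cells, 292 and 259 in plasma cells and 4.25 and 2.98 in other Ptprc cells. Ly6c2 and Prg2 had 0 UMIs in B cells and were at least 58.3-fold and at least 43.5-fold lower than in plasma cells. Slpi, a secreted protease inhibitor, stood at 3.18 and 0 CPM against 1117 and 980.1. Of the killer cell genes, Gzmb and Xcl1 had 0 UMIs in B cells and were at least 36.6-fold and at least 24.6-fold lower than in other Ptprc cells. The chemokine Ccl5 stood at 6.35 and 12.1 CPM against 1208 and 1184, and the macrophage lysozyme Lyz2 at 3.18 and 8.04 CPM against 973 and 961.

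Immunoglobulin transcripts are given beside those of droplets without a called cell and of T cells, which make no antibody. In droplets of 1 to 50 UMIs, Igha stood at 63766 and 60708 and Igkc at 100920 and 103291 unscaled CPM. In the same droplets Ighm stood at 104 and 80.8 unscaled CPM and Ighd at 4.12 and 1.73. Igha had a median of 6 and 5 UMIs in B cells and of 6 and 5 in T cells. It was found in 100% and 96.1% of B cells and in 99.5 and 98.6% of T cells, and after each cell was thinned to 1000 UMIs in 80.7 and 84.3% of B cells and 79.1 and 73.3% of T cells. Igkc had a median of 15 UMIs in the B cells of both libraries and of 9 and 8 in T cells, and macrophages held 14 and 13.

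Ighm and Ighd, the heavy chains of membrane IgM and IgD on naive cells, were found in larger shares of B cells than of the classes set beside them. Ighm was found in 87.7% of B cells of library 1 (interval 76.3 to 94.9%) and 82.4% of library 2 (69.1 to 91.6%). In T cells the shares were 23.4 and 22.4%, in macrophages 44.6 and 47.6%, in plasma cells 10.2 and 13% and in stromal cells 1.91 and 2.86%. Thinned to 1000 UMIs, B cells held it in 59.6 and 58.8%, macrophages in 14.9 and 13.7% and T cells in 7.63 and 6.21%. Ighd was found in 45.6% (32.4 to 59.3%) and 49.0% (34.8 to 63.4%) of B cells and, thinned, in 12.3 and 23.5%. In T cells it was found in 0.528 and 0.379% and in plasma cells in 0.113 and 0.667%. Iglc2, a lambda light chain whose transcripts are near-identical to those of Iglc3 and so uncertain between them, was found in 57.9 and 62.7% of B cells (thinned 19.3 and 35.3%) and 7.32 and 8.40% of T cells (thinned 1.74 and 2.27%).

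As sums, Ighm stood at 721 and 904 CPM in B cells, at 145.3 and 250.8 in plasma cells and at 87.8 and 85.8 in other Ptprc cells. Ighd stood at 146 and 181 CPM, against 0.0947 and 0.993 in plasma cells and 2.48 and 2.29 in other Ptprc cells, a log2 difference of 8.18 ± 0.42 and 6.09 ± 0.33 (edgeR, adjusted p = 4.69e-17 and 7.68e-16). Igha summed to 4588 and 1041 CPM in B cells. The gap between the libraries comes with the 1 cell of 1100 Igha UMIs: before TMM scaling Igha stood at 6862 and 1547 CPM, and at 1878 and 1627 without the 8 cells with markers of another type. In all, 7 of 11 constant-region genes tested were lower than in plasma cells and 2, Ighm and Ighd, higher. Against other Ptprc cells 8 were higher and 0 lower, but Igkc turned to -0.27 on the log2 scale under the stricter gate of 3 Cd79a and 2 Ms4a1 UMIs. Of the 8, Ighg1 rested on 4 UMIs of 1 cell of library 2, with 0 in library 1. Ighg2b rested on 2 cells of each library, with 6 and 10 UMIs.

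**Figure D2:**
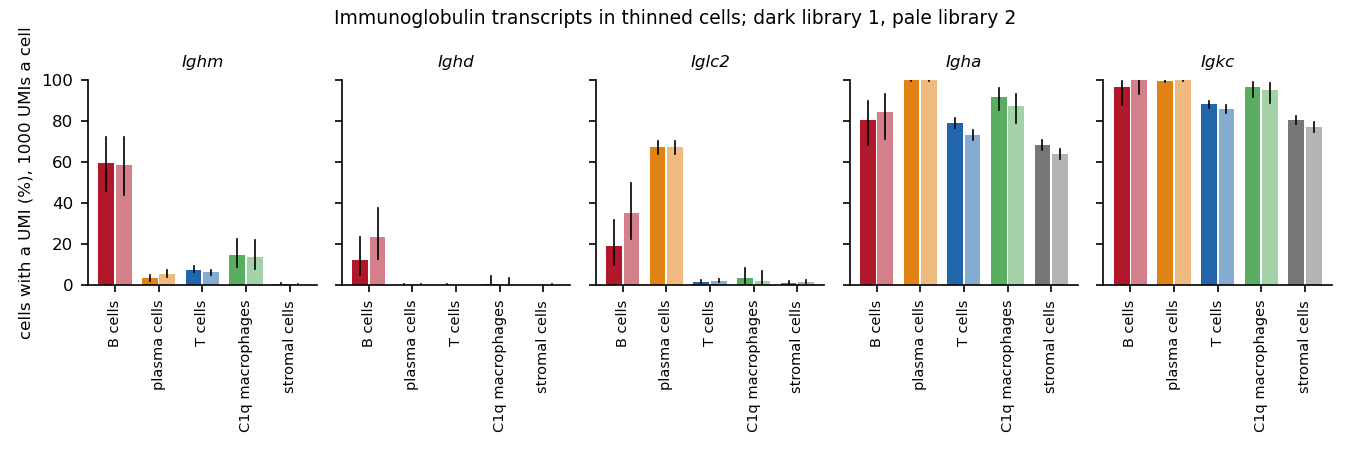
Share of cells (%) with at least 1 UMI of 5 immunoglobulin genes after each cell was thinned to 1000 UMIs, by cell class, dark bars for library 1 and pale bars for library 2, with exact 95% intervals. B cells stand apart for Ighm (59.6 and 58.8%) and Ighd (12.3 and 23.5%), while Igha is found in T cells in 79.1 and 73.3%.

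The genes of MHC class II presentation were those of an antigen-presenting cell. All 10 tested were higher than in plasma cells (median log2 difference 3.07). H2-Aa, an alpha chain, stood at 2515 and 2776 CPM against 224 and 227 in plasma cells, and Ciita, the master regulator of class II genes, at 34.9 and 56.3 against 0.663 and 0.993. H2-Ob, which with H2-Oa restrains peptide loading, stood at 305 and 338 CPM against 14.1 and 12.8 in plasma cells and 26.2 and 28.1 in other Ptprc cells. H2-Aa was found in 100% of B cells of both libraries and in 21.1 and 18.8% of T cells, and near-empty droplets held 1289 and 1090 unscaled CPM of it.

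Against other Ptprc cells, which include dendritic cells and macrophages, 7 were higher and 1 lower (median log2 difference 0.37). The differences were large for H2-Ob (3.56 ± 0.17), H2-DMb2 (2.16 ± 0.17), Ciita (2.00 ± 0.39) and H2-Oa (1.43 ± 0.21). They were small for Cd74, the invariant chain (0.24 ± 0.07), and H2-Aa (0.28 ± 0.07), and both turned to -0.08 and -0.14 under the stricter gate. H2-DMb1 was lower, with 105 and 92.4 CPM against 152 and 164 in other Ptprc cells. Its sequence is close to that of H2-DMb2, so that the split of their reads is uncertain. H2-Ab1 and H2-Eb1 did not pass the test. Of 5 costimulatory genes tested, Cd86 (263.5 and 249.1 CPM) and Cd83 (508 and 522 CPM) were higher than in both classes, and Cd80, at 6.35 and 0 CPM, was lower than in other Ptprc cells (35.7 and 34.1 CPM).

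Cxcr5, which leads B cells into follicles, and Ccr6 were high. Ccr10 and Ccr9, which lead plasma cells into the lamina propria, were low. Of 17 trafficking genes tested, 9 were higher and 5 lower than in plasma cells (median log2 difference 1.60), and 7 were higher and 3 lower than in other Ptprc cells (median 0.20, or -0.11 with 5 higher and 4 lower under the stricter gate). Cxcr5, the receptor for CXCL13 of follicles, stood at 108 and 149 CPM in B cells, at 0.0947 and 1.08 in plasma cells and at 4.83 and 5.02 in other Ptprc cells. Ccr6 stood at 124 and 153 CPM against 1.61 and 2.53 in plasma cells. The log2 differences were 7.71 ± 0.45 and 6.05 ± 0.33 (edgeR, adjusted p = 1.47e-15 and 1.98e-16). Ccr10, the receptor of IgA plasma cells for CCL28, stood at 0 and 4.02 CPM against 683 and 657. Ccr9, which responds to CCL25 of the small intestine, stood at 6.35 and 20.1 CPM against 159 and 157 in plasma cells and 153 and 146 in other Ptprc cells. The integrin chain Itgb7 was lower than in both classes as well, with 34.9 and 44.2 CPM.

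Counted by cells, Cxcr5 was found in 40.4 and 43.1% of B cells (thinned 10.5 and 21.6%) and in 0.755 and 0.908% of T cells. Ccr6 was found in 28.1 and 37.3% (thinned 15.8 and 13.7%) and in 3.47 and 4.39% of T cells. The median depth was 3592 and 3550 UMIs in T cells against 2770 and 2679 in B cells. At the depth of these cells, one without a UMI of such a gene cannot be called negative.

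The receptors for survival factors of the TNF family were divided between the classes. Tnfrsf13c (BAFF receptor), on which resting B cells depend, stood at 111 and 133 CPM in B cells, 40.1 and 41.1 in plasma cells and 3.43 and 2.57 in other Ptprc cells. Tnfrsf13b (TACI) stood at 34.9 and 40.2 CPM, against 256 and 257 in plasma cells and 9.21 and 10.1 in other Ptprc cells. Tnfrsf17, the third of them, had no UMI, as given above. Il4ra and Il21r, receptors for helper T cell cytokines, were higher than in plasma cells (121 and 169 against 19.3 and 25.7 CPM, and 175 and 233 against 26.9 and 36.3) and did not pass the test against other Ptprc cells. The survival factor Mcl1 was lower than in plasma cells, at 257 and 189 against 592 and 547 CPM. In all, 4 of 10 genes were higher and 5 lower than in plasma cells, and 2 were higher and 3 lower than in other Ptprc cells.

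**Figure D3:**
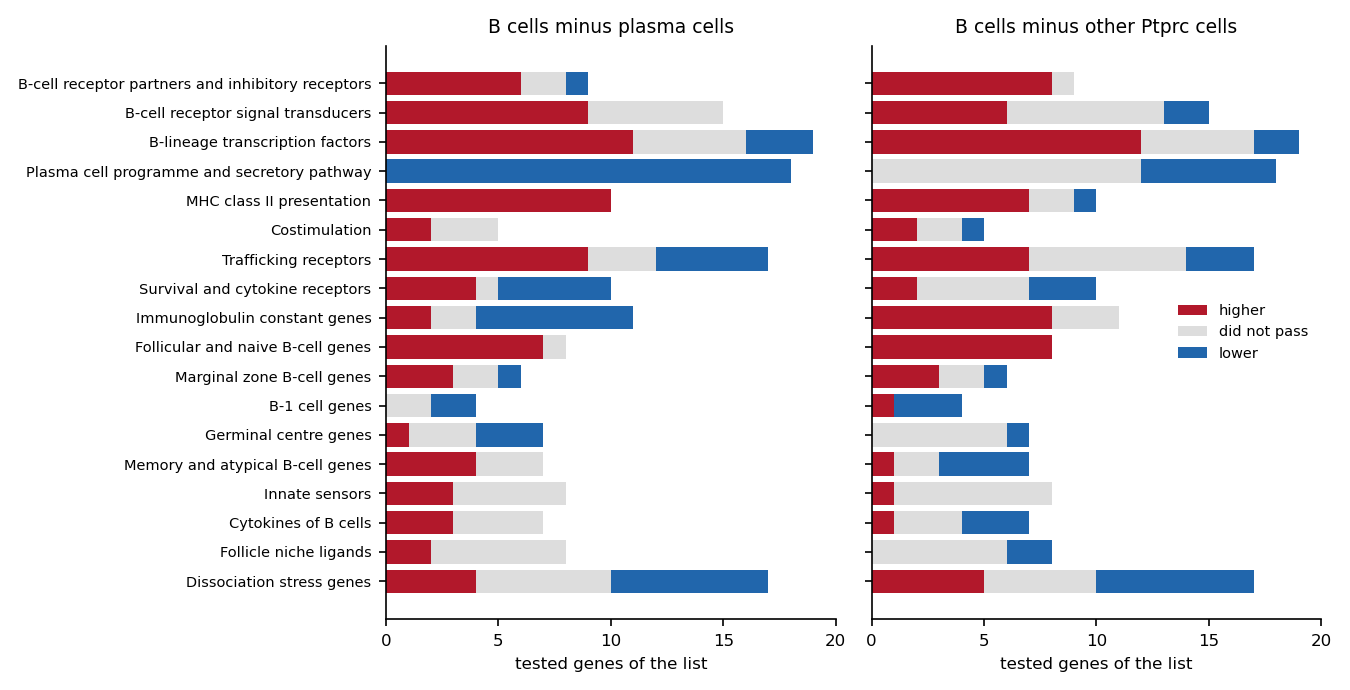
Number of tested genes called higher, called lower or not passing edgeR's test at an adjusted p under 0.05, for 18 lists of genes, in B cells against plasma cells and against other Ptprc cells. The secretory programme is lower for 18 of 18 genes and MHC class II higher for 10 of 10 against plasma cells, and the follicular list is higher for 8 of 8 against other Ptprc cells.

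Lists of B-cell subsets were not equally represented. Of 8 genes of follicular and naive B cells, 7 were higher than in plasma cells and 0 lower (median log2 difference 5.25), and 8 were higher than in other Ptprc cells (median 2.91). Without the 8 cells with markers of another type, 7 of 8 were higher than in other Ptprc cells. Fcer2a (CD23), the low-affinity receptor for IgE, stood at 130.2 and 92.4 CPM in B cells, at 0.189 and 0.271 in plasma cells and at 1.07 and 0.694 in other Ptprc cells. The log2 difference from plasma cells was 8.84 ± 0.50 (edgeR, adjusted p = 4.77e-16). Fcer2a was found in 35.1 and 27.5% of B cells (thinned 17.5 and 11.8%) and in 0.0755 and 0% of T cells. Klf2, a factor of naive lymphocyte traffic, was the 1 follicular gene that did not pass the test against plasma cells (124 and 157 against 159 and 135 CPM).

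Marginal zone genes were mixed: Cr2, Dtx1 and S1pr3 were higher than in plasma cells and Cd9 (25.4 and 12.1 CPM, against 45.3 and 44.1) was lower. The same 3 genes were higher and Cd9 lower than in other Ptprc cells. Without library 1, the log2 difference of S1pr3 from other Ptprc cells turned to -0.21. Of 4 B-1 cell genes tested, 0 were higher than in plasma cells and 2, Spn and Bhlhe41, lower. Against other Ptprc cells 1, Bhlhe41, was higher and 3, Spn, Plscr1 and Cd5, were lower. Spn (CD43) stood at 6.35 and 0 CPM against 60.1 and 58.0 in plasma cells, and Cd5 at 3.18 and 4.02 against 11.1 and 12.5. Germinal centre genes gave 1 higher and 3 lower of 7 tested against plasma cells, and 0 higher and 1 lower against other Ptprc cells. Basp1 stood at 6.35 and 48.2 CPM against 265 and 254 in plasma cells, and Nuggc had 0 UMIs in B cells. Bcl6, the factor of germinal centre cells, was the 1 higher, at 12.7 and 28.1 CPM against 4.74 and 7.58, and turned to -0.21 on the log2 scale under the stricter gate. The gate itself leaves out cells in cycle by their Mki67 and Top2a transcripts, which bears on germinal centre genes. Memory genes gave 4 higher of 7 against plasma cells (Ccr6, Zeb2, Pdcd1lg2 and Nt5e) and 1 higher and 4 lower against other Ptprc cells. Of those, Zeb2 stood at 130.2 and 60.3 CPM and Pdcd1lg2 at 19.1 and 48.2 CPM in B cells. Medians of the smaller lists are not given, since several of their genes had 0 UMIs in B cells, where a fitted difference has no scale.

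Sensors and cytokines were sparse. Cd180, a receptor that with Ly86 modulates responses to lipopolysaccharide, stood at 44.4 and 36.2 CPM, against 5.68 and 5.60 in plasma cells and 2.73 and 2.90 in other Ptprc cells. Ly86 stood at 121 and 84.4 CPM against 5.97 and 6.41 in plasma cells. They were 2 of the 3 called higher among 8 sensors tested against plasma cells. The other was Tlr1 (12.7 and 0 CPM), which without library 1 turned to -1.71 on the log2 scale. Of 7 cytokine genes, Ltb, Tgfb1 and Il6 were called higher than in plasma cells. Lymphotoxin beta (Ltb), which organises lymphoid follicles, stood at 111 and 149 CPM against 26.2 and 29.4 in plasma cells and 128 and 126 in other Ptprc cells. Tgfb1 stood at 206 and 269 CPM against 44.6 and 45.6. The Il6 call rests on 16 UMIs of 1 cell of library 1, with 0 in library 2, and without the cells with markers of another type Il6 did not pass the test.

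Ligands of the follicle niche gave 2 of 8 genes called higher than in plasma cells. These were Cxcl12, at 82.6 and 24.1 CPM against 21.8 and 24.4, and Il6. Without library 1 the log2 difference of Cxcl12 was -0.02, and without the 8 cells with markers of another type it was -3.29. Cxcl13 had 0 UMIs in B cells. Cxcl12 was then called lower than in plasma cells (edgeR, adjusted p = 0.0102), and Il6 was not called.

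Immediate early genes and others that respond to dissociation differed in both directions: 4 of 17 were higher and 7 lower than in plasma cells, and 5 were higher and 7 lower than in other Ptprc cells. Nr4a1, which is also induced by signalling through the antigen receptor, stood at 486 and 530.3 CPM in B cells, at 46.5 and 50.5 in plasma cells and at 276 and 238 in other Ptprc cells (log2 3.38 ± 0.14 and 0.98 ± 0.11, edgeR adjusted p = 8.14e-20 and 5.03e-08). It had a median of 2 UMIs a cell in both libraries and reached 12 and 13. Junb was higher than in plasma cells (1273 and 1366 against 698 and 703 CPM) and lower than in other Ptprc cells (2717 and 2614). Egr1 was called higher than in other Ptprc cells (524 and 426 against 313 and 292 CPM), but was 0.72 lower on the log2 scale without the 8 cells with markers of another type. Then 3 of the 17 were higher and 11 lower than in plasma cells, and 2 higher and 10 lower than in other Ptprc cells. How much of this list reflects the preparation was not tested.

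Among themselves the B cells varied more in some genes than in others. Cd74 ran from 5 to 85 UMIs a cell in library 1 (median 33) and from 13 to 67 in library 2 (median 31). Ebf1 ran from 0 to 18 (median 4) and from 0 to 14 (median 4), and Cd79b from 0 to 6 and 0 to 13 with a median of 1. Ighm ran from 0 to 14 (median 3) and from 0 to 21 (median 2), and Ighd from 0 to 5 in both with a median of 0. For Igha, 1 cell of library 1 held 1100 UMIs and the highest cell of library 2 held 15.

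**Figure D4:**
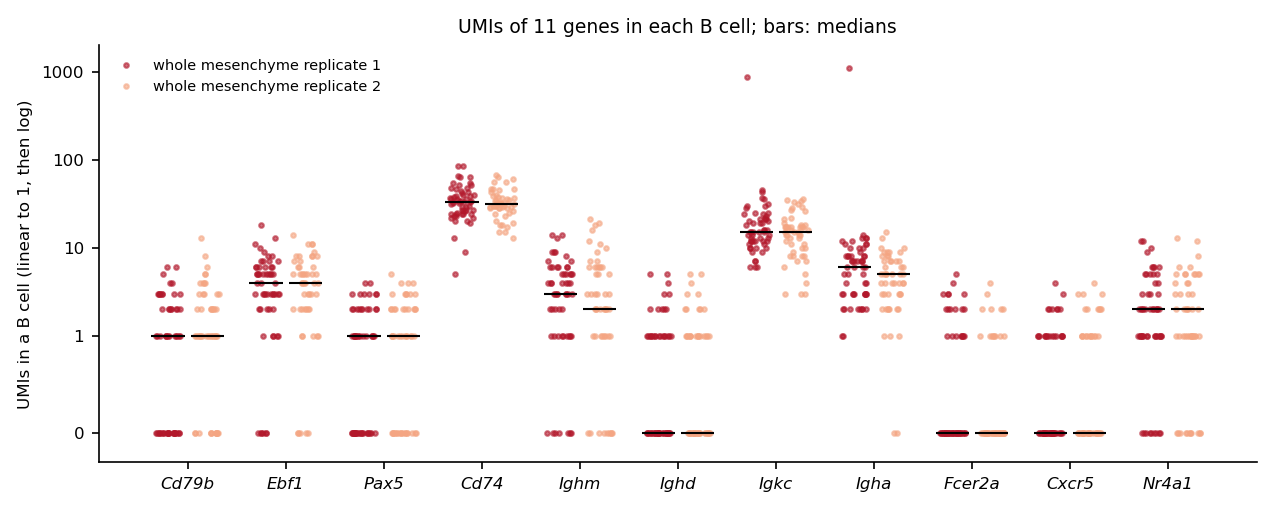
UMIs of 11 genes in each of the 108 B cells (1 point a cell, 57 in library 1 and 51 in library 2), with the median as a bar, on an axis that is linear to 1 and logarithmic above. Cd74 lies between 5 and 85 in every cell, Ighd between 0 and 5, and 1 cell stands apart at 1100 Igha and 866 Igkc UMIs.

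By their heavy chains, 26 and 24 B cells held both Ighm and Ighd UMIs, 24 and 18 held Ighm alone, 0 and 1 held Ighd alone, and 7 and 8 held neither. The cells with Ighd (26 and 25) and without it (31 and 26) had median depths of 2788.5 and 2679 UMIs against 2770 and 2687. Ighd itself was left out, and of 1306 genes tested between their sums, edgeR called 0 higher and 9 lower in the cells with Ighd (0.689% in all), and 99 genes had an unadjusted p under 0.05. The 9 were Id3, Ifitm3, Jun, Egr1, Fos, Odc1, Igha, Cald1 and Emb. DESeq2 called 0 in either direction, with 11 genes at an unadjusted p under 0.05.

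Scaled within these sums, Id3 stood at 21.7 and 25.4 CPM in the cells with Ighd and at 335 and 764 in those without. Fos stood at 336 and 241 CPM against 872 and 960. Of the 8 cells with markers of another type, which were deeper than the rest, 7 held no Ighd UMI. Without them, 1 gene was called higher and 0 lower, and the log2 differences of Egr1 and Fos were 0.22 and 0.08. Of the 9 genes, 5 were still tested and none of these was called, while the other 4 had too few counts to be tested (1075 genes in all). Cd74 (10794 and 10974 against 9065 and 9086 CPM) and Ighm (1290 and 1816 against 951 and 894 CPM) were higher in both libraries without passing the test (edgeR, adjusted p = 0.0510 and 0.167). Fcer2a and Cxcr5 each had a log2 difference of 0.46 and adjusted p = 0.865. No gene of the naive lists was therefore shown to move with Ighd at this depth.

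B-cell transcripts were also sought in the sorted libraries, which the gate did not use. In the single-cell library of PDGFRA-GFP cells, 1 of 3890 kept cells met the gate (0.0257%, exact interval 0.000651 to 0.143%), 16 held a Cd79a UMI and 1 an Ms4a1 UMI. That interval lies below those of both whole-mesenchyme libraries. In the bulk libraries, fewer B cells and less RNA per B cell cannot be told apart.

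In the bulk libraries Cd79a, Cd79b and Ms4a1 were highest in lymphatic endothelium. Cd79a stood at 0.997 and 1.75 CPM in telocytes, 8.98 and 33.8 in PDGFRAlo cells, 98.7 and 31.3 in blood endothelium and 1477 and 492 in lymphatic endothelium. The log2 difference of lymphatic from blood endothelium was 3.92 ± 0.85 (edgeR, adjusted p = 0.0116). Cd79b followed the same order, at 0.712 and 0.424, 5.48 and 14.8, 40.5 and 15.8, and 529 and 171 CPM. The 2 lymphatic libraries differed by about as much as the 2 blood libraries, and neither gene's values overlapped between the 2 kinds of endothelium.

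Of 23 B-cell genes looked for, 22 were tested (Ighd had no row in the table). In lymphatic endothelium 9 were higher than in blood endothelium, where 8.32% of all 14893 tested genes were, and 1 was lower, where 14.7% were. The median log2 difference of the 22 genes was 2.11, against -0.12 over all genes. Among the 9 were Cd79a, Cd79b, Ms4a1, Cd72, Fcgr2b, Fcrl1, Cd55 and Bank1, and the 1 lower was Klf2, which endothelium itself expresses. Ms4a1 stood at 12.6 and 7.24 CPM in blood and 173 and 43.8 in lymphatic endothelium. Fcgr2b, at 59.3 and 34.6 against 449 and 511 CPM, and Cd72, at 39.9 and 32.9 against 174 and 170 CPM, are expressed by cells other than B cells. Cd79b did not differ between B cells and plasma cells in the single-cell sums above, so it does not tell them apart here. Which cells carried these transcripts in the bulk libraries was not tested. Pax5 did not follow: it stood at 7.18 and 19.5 CPM in blood and 18.4 and 2.89 in lymphatic endothelium, and its ranges overlap. Cr2, Cd22, Cxcr5, Fcer2a and Blk were also among the 12 genes that did not pass the test. Without blood endothelium replicate 2, or without lymphatic endothelium replicate 1, 4 genes were called higher in number, and Cd79a passed the test in neither.

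**Figure D5:**
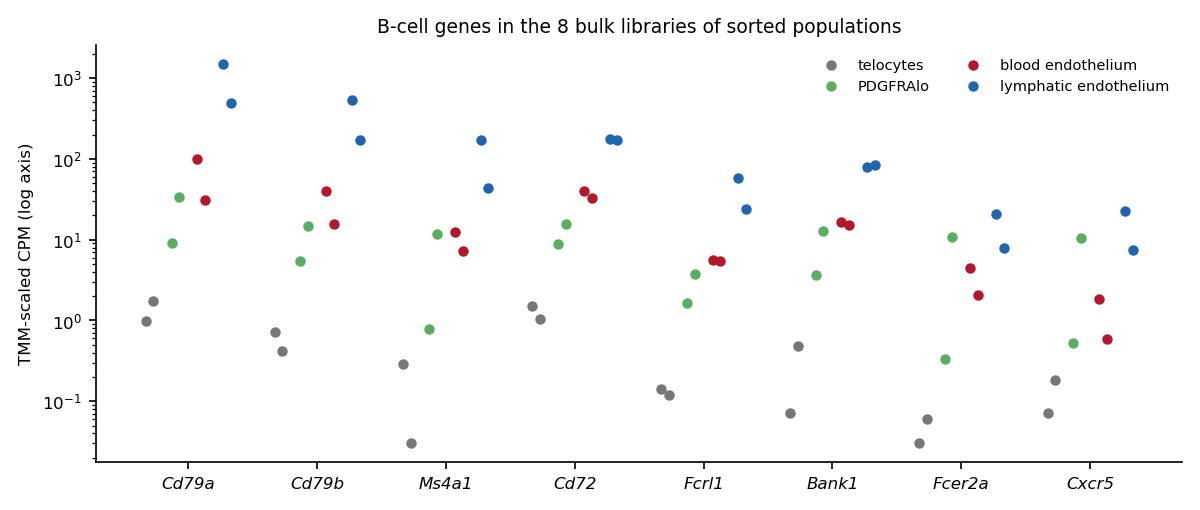
CPM (log axis) of 8 B-cell genes in the 8 bulk libraries, 2 points per sorted population, where values of 0 are drawn at a floor below all measured values. Cd79a lies at 1477 and 492 CPM in lymphatic endothelium, above the 98.7 and 31.3 CPM of blood endothelium.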

How the data were processed

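Counts of UMIs for each gene in each barcode were deposited by the authors as filtered and unfiltered matrices, made with Cell Ranger (3.0.2 for whole mesenchyme, 2.1.1 for the sorted library) on mm10, per the submitters' processing notes. The bulk values are raw counts per gene name deposited as one table after alignment with STAR, per the submitters' processing notes; how reads were assigned to genes, and whether by strand, is not given in the sources used here. In that table, 26 names turned into dates (0.131 to 0.523% of counts) were left out of the tests. Bulk totals ran from 8537569 to 55309701 counts.

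The members, comparison classes and gene lists were chosen with earlier results of these data known. Counts were summed per library and class and tested with edgeR 4.0.16 (quasi-likelihood, TMM, filterByExpr, library as block, Benjamini-Hochberg), all 3 classes in 1 fit with 2 residual degrees of freedom. The 10 gate genes were left out. Genes named in the text were members of the lists, or among the 8 largest rises and falls at 100 CPM or more in either class. Genes with no UMI in B cells were given no fold, other than a bound by 3 counts. The bulk fit held 8 libraries of 4 groups. Scrublet in scanpy 1.11.5 called doublets, which were kept. Shares were also taken after thinning each cell to 1000 UMIs; 12 cells of the other classes were shallower and left out. Alternatives were DESeq2 1.42.0, no filter, no block, 2 classes, no immunoglobulin genes, no doublets, stricter and looser gates, and each library left out. On simulated data with 200 changed genes, the test recovered 13 of 100 genes changed 2-fold and 35 of 100 changed 4-fold for B against plasma cells, with 14.3% of calls false, and 15, 28 and 15.7% for B against other Ptprc cells (13598 genes each). For the Ighd split it recovered 48 and 92 of 100, with 6.04% false (1312 genes). Promoters were RefSeq windows on GRCm38.p6, with 21 of 28 genes looked for matched; gene positions were from GENCODE M21. Results of some items withheld for evaluation are not reported here.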

Additional observations from a re-analysis of the deposited data

How the results depend on the processing

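Over 2 libraries, the B cell sums are the limit, at 3.18 and 4.02 CPM for 1 UMI. Under the alternatives run, 18 log2 differences of called listed genes changed sign, and some of these lost their call as well. Apart from these, 110 lost their call, 58 gained one and 4032 did neither. A change of sign in a gene that was not called was not counted. With 1 whole-mesenchyme library left out there was no test, and only direction was compared. Sign changes against plasma cells were Bcl6 at -0.21 under the stricter gate, Cxcl12 at -3.29, Id3 at -0.29 and Il6 at -7.60 without the cells with markers of another type, and Cxcl12 at -0.0157 to 1.91, Il6 at -3.67 to 4.61 and Tlr1 at -1.71 to 4.74 as library 1 or library 2 was left out. Against other Ptprc cells they were Cd74 at -0.0807, Fos at 0.0508, H2-Aa at -0.14, Ighg1 at -3.95 and Igkc at -0.27 under the stricter gate, Egr1 at -0.72 and Id3 at -1.57 without the cells with markers of another type, and S1pr3 at -0.21 to 2.82 and Ighg1 at -0.50 to 6.08 as library 1 or library 2 was left out. In the Ighd split they were Egr1 at 0.22 and Fos at 0.0760 without the cells with markers of another type. The causes were not tested.

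The stricter gate called 413 genes higher than in other Ptprc cells, on 30 and 23 cells. DESeq2 called 1609 higher and 1535 lower than in plasma cells (51.2% higher, against 38.1% with edgeR) and 708 and 929 against other Ptprc cells (43.2% against 32.6%). It moved the median of all genes against plasma cells by 0.115 on the log2 scale, and leaving out the filter moved it by -0.103. In the Ighd split 0 genes were lower with DESeq2, 3 higher and 61 lower with no filter, and 1 higher and 0 lower without the cells with markers of another type. The depth-restricted split was not run, since its sums held under 20 cells. Without the library as a replicate block, 1325 genes were higher and 2162 lower than in plasma cells, 634 and 1300 against other Ptprc cells, and 0 and 6 in the Ighd split. In the bulk libraries the replicate number as a replicate block gave 8 higher and 1 lower; same-numbered libraries had correlations of -0.103 to 0.195 over 6 pairs, so the numbers do not pair them. With no filter 2 bulk genes were lower. Leaving out 1 endothelial library at a time gave 4 to 6 genes higher and 0 to 1 lower.

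The share of B cells was 0.239 and 0.165% with at most 5% mitochondrial transcripts and 0.482 and 0.381% under the stricter gate. Thinning moved the shares of cells with Ighm to 59.6 and 58.8%, Ighd to 12.3 and 23.5%, Cxcr5 to 10.5 and 21.6% and Fcer2a to 17.5 and 11.8%. The alternative without the cells with markers of another type was chosen after seeing the data.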

Other observations

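Il22, a cytokine of innate lymphoid cells and of some T cells, summed to 424 UMIs in the B cells of library 1, of which 417 lay in 1 cell. The cell held 9440 UMIs and 2539 genes, with 6 Cd79a, 2 Ms4a1, 3 Cd79b, 8 Ebf1 and 48 Cd74 UMIs, beside 6 UMIs of T cell markers and 2 of natural killer and innate lymphoid markers. It is not among the 8 cells with 10 or more UMIs of another type's markers. In all, 8 and 2 B cells held an Il22 UMI. Rgs5, a pericyte gene, summed to 124 UMIs in 2 cells of library 1, with 108 in 1 of them, and to 0 in library 2.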
